A study of Mus musculus with 3 samples.

Results

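The SOX group F genes Sox7, Sox17 and Sox18 were followed in endothelial cells sorted from the embryonic mouse kidney. The group was taken as the probe sets whose platform annotation gives exactly 1 gene symbol equal to Sox7, Sox17 or Sox18. All 3 genes were found, each with 1 probe set, among 19938 named genes and 35557 probe sets. The sorted cells were taken at 15.5 dpc from the Tie2-GFP line on a CD-1 background, in which the promoter of Tek (Tie2), the angiopoietin receptor gene, drives green fluorescent protein. Each of the 3 samples, replicates 1 to 3 of a single group, was a pool of 4 to 5 embryonic kidneys that was dissociated with trypsin, sorted for GFP and hybridized to its own Affymetrix Mouse Gene 1.0 ST array. The Tie2 promoter is also used by some blood-forming cells and macrophages, so the sort does not by itself isolate endothelium. The study describes its samples as independent and biological, the labels do not name litters, and the p-values cover only the spread among the 3 arrays. There was no second sample type, so the question was how high each gene lay and how far the pools differed.

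SOX proteins bind the minor groove of DNA through a high mobility group box and bend it, and members of one group share much of their sequence outside the box as well. Sox7, Sox17 and Sox18 form group F, which is carried by endothelial cells from early vessel formation onward. The factors partly replace each other there. Sox17 is known for arterial identity and for the definitive endoderm and fetal blood stem cells, Sox18 for early lymphatic specification and vessel integrity, and Sox7 for the early endothelial and blood precursors.

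Markers of endothelium and of macrophages were measured in the sorted cells. Tek is among the endothelial markers, and since its promoter selected the cells, its own call is no independent support. All 10 endothelial markers were at least 100 on the raw scale in every array, as were 47.3% of all named genes. In limma's test against 100, described below, 8 of the 10 were above, while Eng (adjusted p = 0.088) and Esam (0.14) were not, though both were by the pooled spread and Eng also after quantile normalization. Their median log2 values were 10.28, 10.16 and 8.79 in replicates 1, 2 and 3. The 8 macrophage markers had medians of 6.86, 7.95 and 8.59, with all 8 lowest in replicate 1. Array medians over all probe sets lay between 6.50 and 6.55, while the SD across probe sets was 1.84 in replicate 3 against 2.08 and 2.06 in the others. For 69.6% of named genes 2 or all 3 arrays held the same value to the last digit, so that many SDs are near 0. The spread towards which limma draws each gene was accordingly small, with a prior SD of 0.016 log2 and 0.41 prior degrees of freedom, and adjusted p-values of genes with equal values rest on it. The pooled spread, 1 SD for all probe sets, is therefore given beside calls that it changes. It takes that SD as known without error and leaves out how far the gene itself varied between arrays.

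Sox18 was above the level of 100 in the sorted cells. It measured 9.35, 9.27 and 8.79 log2 in replicates 1, 2 and 3, with a mean of 9.14 ± 0.30 (SD, n = 3). All 3 arrays were above the filter level of 100 on the raw scale (6.64 log2), the level below which the study set probe sets aside, by 6.52, 6.19 and 4.44 times. Replicates 1 and 2 lay close together and replicate 3 was lower. The mean exceeded the level by 2.50 ± 0.16 log2 (SE), or 5.64 times, and passed limma's one-sided test (adjusted p = 0.0040).

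Sox17 was also above the level. It measured 8.41, 8.28 and 7.96 log2 in the 3 replicates, with a mean of 8.22 ± 0.23 (SD, n = 3), which is 2.98 times the level. Each array was above the level by 2.49 to 3.41 times, and replicate 3 was again the lowest. The difference of 1.58 ± 0.12 log2 (SE) passed limma's test (adjusted p = 0.0060).

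Sox7 lay nearer to the level and varied more. It measured 7.90, 7.41 and 7.04 log2, with a mean of 7.45 ± 0.43 (SD, n = 3), or 1.75 times the level. The gene was over 100 in each array, by 2.39, 1.70 and 1.31 times, but the difference of 0.81 ± 0.23 log2 (SE) did not pass limma's test (adjusted p = 0.072 and 0.027 before adjustment). With 1 spread pooled over all probe sets and taken as known, the same difference passed (adjusted p = 0.0075). That test does not use the spread of Sox7 itself. The gene also passed after quantile normalization of the arrays (adjusted p = 0.026, limma).

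Of the 3 genes, 2 were above the level and none was below, against 41.6% of all named genes above it and 41.6% below. The level was met in all 3 arrays by all 3 genes and by 47.3% of named genes. Leaving out replicate 1 left Sox18 alone above it, and leaving out replicate 2 left none (limma, adjusted p = 0.057 for Sox18 and 0.072 for Sox17). Without replicate 3, the array with the narrowest spread, Sox17 and Sox18 passed (adjusted p = 0.034 and 0.014, limma) and Sox7 did not (0.17). Of all 35557 probe sets 12629 were above with 3 arrays, and 8424, 7712 and 11688 without replicate 1, 2 and 3. The values of different probe sets depend on how well their probes bind, so no order of abundance among the 3 genes can be read from these levels.

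**Figure D1:**
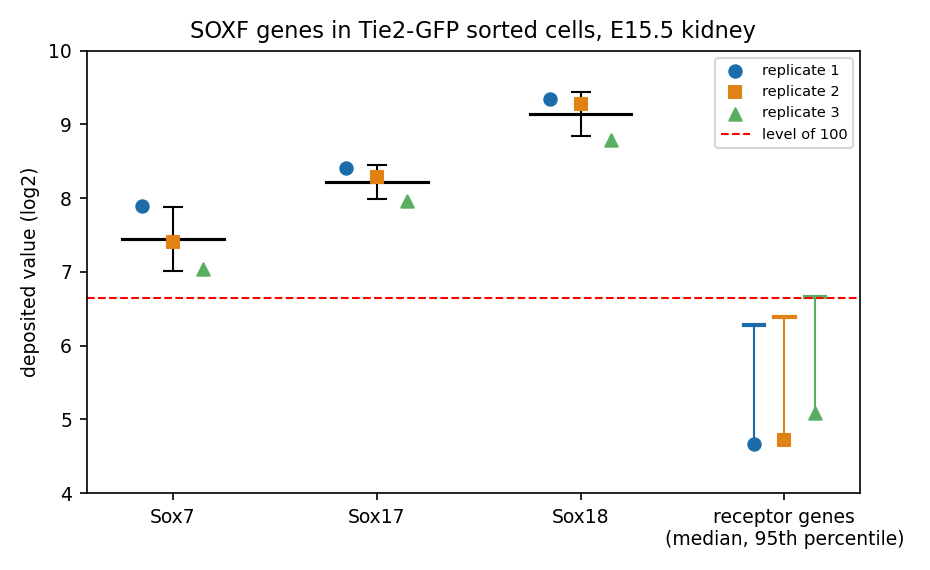
Deposited log2 values of Sox7, Sox17 and Sox18 in each of 3 arrays (symbols), with the mean (bar) and SD (whiskers, n = 3), and at the right the median and 95th percentile of 1194 olfactory and vomeronasal receptor genes in each array. All 9 SOXF points lie above the dashed filter level of 100, and the receptor medians lie between 4.67 and 5.08.

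The genes were set beside 1194 olfactory and vomeronasal receptor genes, which kidney cells are not known to use and which serve as a background. Their medians were 4.67, 4.71 and 5.08 log2, and their 95th percentiles 6.28, 6.39 and 6.67. No receptor gene reached the value of Sox18 in replicates 1 and 2, and 2 did in replicate 3. Over the 3 arrays, however, the highest receptor mean was 9.22 log2, above the Sox18 mean of 9.14. Sox17 was reached by 1, 1 and 5 of the 1194. Sox7 was reached by 2, 6 and 28, the last being 2.35% of them. Sox7 in replicate 3 was thus the SOXF value closest to this background. In limma's test 21 of the 1194 receptors (1.76%) were above the level and 1079 (90.4%) below, against 41.6% of all named genes on each side. These receptors are only 1 background, and Sox7 lay near some SOX genes best known from other tissues, given below.

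The genes differed in how far they moved between the pools. Each of the 3 was highest in replicate 1 and lowest in replicate 3, an order of arrays shared by 12.5% of all named genes. The 13877 of 19938 named genes (69.6%) with equal values cannot have that order. All 2492 genes that had it thus lie among the genes without ties, where its share is much higher than 12.5%. The 3 SOXF genes have no ties, so the order is no rare trait of theirs. Of the 10 endothelial markers 9 had it. The span was 0.86 log2 (1.82 times) for Sox7, 0.56 (1.47 times) for Sox18 and 0.45 (1.37 times) for Sox17. None of the 3 had equal values in any 2 arrays.

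Sox17 and Sox18 kept their rank within each array. Sox18 lay at percentiles 91.0, 91.1 and 90.8 of all named genes in replicates 1 to 3, and Sox17 at 82.5, 81.8 and 81.9. After quantile normalization, which gives the 3 arrays one distribution, the SD of Sox18 was 0.06 log2 and that of Sox17 0.05, against 0.30 and 0.23 as deposited. Sox7 lay at percentiles 75.5, 67.7 and 61.4, and its SD remained 0.36 after quantile normalization (0.43 as deposited). The difference in log2 between Sox18 and Sox17 in the same array was 0.93, 0.99 and 0.83, while Sox17 exceeded Sox7 by 0.51, 0.87 and 0.92. These differences describe unequal change between arrays, and with 1 array per pool no test between pools was possible.

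On average the 3 genes moved less between pools than the endothelial markers did, a difference that was not tested. Mean deviations of the 3 genes from their own means were 0.29, 0.05 and -0.34 log2 in replicates 1, 2 and 3. For the 10 endothelial markers they were 0.50, 0.30 and -0.80, with all 10 lowest in replicate 3. The 8 macrophage markers deviated by -0.89, 0.15 and 0.74. Against the mean of the endothelial markers in the same array, Sox18 stood at -0.93, -0.80 and -0.18 log2, Sox17 at -1.87, -1.79 and -1.02, and Sox7 at -2.38, -2.66 and -1.94. All 3 were thus closest to the endothelial mean in replicate 3. Fewer endothelial cells in a pool and less RNA of these genes per cell cannot be told apart in such samples, and the part of macrophage RNA or of the narrower spread of replicate 3 was not tested.

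**Figure D2:**
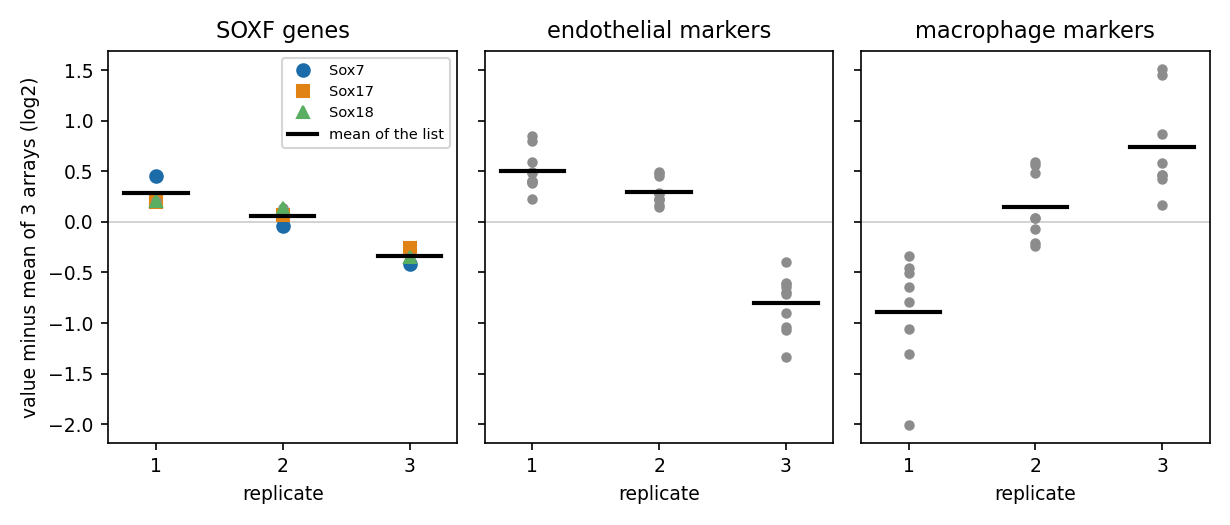
Value minus the mean of the 3 arrays (log2) in replicates 1, 2 and 3 for the SOXF genes, the 10 endothelial markers and the 8 macrophage markers, with a bar at the mean of each list. The SOXF and endothelial bars are lowest in replicate 3, at -0.34 and -0.80, where the macrophage bar is at 0.74.

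The genes most like each SOXF gene over the 3 arrays were found by the root mean square difference of centred log2 values, among 10097 other genes with a mean of at least 100. For Sox18 they were Rnf20, Skil and Adam17 (0.002, 0.002 and 0.003 log2), for Sox17 Pdha1, Cux1 and Zfp512b (0.003, 0.005 and 0.006), and for Sox7 Cluh, Thap12 and Tra2b (0.007, 0.010 and 0.013). With 3 arrays such matches are common. As many as 1332 genes lay within 0.1 log2 of Sox18, 1512 of Sox17 and 248 of Sox7. Sox17 and Sox18 differed from each other by 0.065, and Sox7 differed by 0.18 from each of them.

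The remaining SOX family gave a mixed picture. All 17 other SOX genes on the list were measured, of which 9 were above the level, 5 below and 3 on neither side, and their median was 7.28 log2 against 6.67 over all named genes. In 15 of the 17 at least 2 arrays had equal values, whereas none of the SOXF genes did. By the pooled spread 9 were above and 2 below, with Sox12 and Sox15 gained above and Sox4 and Sox14 lost. Among all named genes 41.6% were above and 41.6% below.

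Group C genes are widely used by dividing and precursor cells, and 2 of them, Sox11 and Sox12, were the only other SOX genes on the list with 3 different values. Sox11 measured 9.13, 9.06 and 8.68 log2 and was above the level at 8.96 ± 0.24 (SD, n = 3, adjusted p = 0.0031 by limma). Sox12 measured 8.11, 7.94 and 7.05 and did not pass (adjusted p = 0.073, limma), with replicate 3 well below the others, but it did by the pooled spread and after quantile normalization. Sox4 passed at 7.20 ± 0.12, but with the pooled spread it did not. Of group D, whose members lack a transactivation domain of their own, Sox13 was above at 7.85 ± 0.10, Sox5 was below at 6.22 ± 0.06 (not by the pooled spread) and Sox6 at 6.32 ± 0.34 did not pass.

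Group E holds regulators of other kidney and neural lineages. Sox9, a factor of the ureteric bud tip and nephron epithelium, was above the level at 7.29 ± 0.07 log2, and Sox10, a neural crest factor, at 7.30 ± 0.12 (SD, n = 3). Sox8 was listed at 6.60 in all 3 arrays and was below, though not by the pooled spread. Neither Sox9 nor Sox10 had 3 different values.

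Genes of groups A, B, G and H are best known from testis, neural tissue and germ cells. Sox1 (7.32 ± 0.16), Sox3 (7.41 ± 0.00), Sox14 (6.92 ± 0.00) and Sry (7.61 ± 0.01) were nevertheless above the level (SD, n = 3), Sox14 not by the pooled spread. Each had equal values in 2 arrays or more, and Sox3 and Sox14 in all 3. The mean of Sox7 (7.45) lay between those of Sry and Sox3, while those of Sox17 (8.22) and Sox18 (9.14) were higher than any of these. The pluripotency factor Sox2 was below at 5.26 ± 0.31, as were Sox30 at 5.91 ± 0.07 and, though not by the pooled spread, Sox21 at 6.36 ± 0.02. Sox15 measured 6.91, 6.91 and 8.02 and did not pass, except by the pooled spread, being high in replicate 3 alone.

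**Figure D3:**
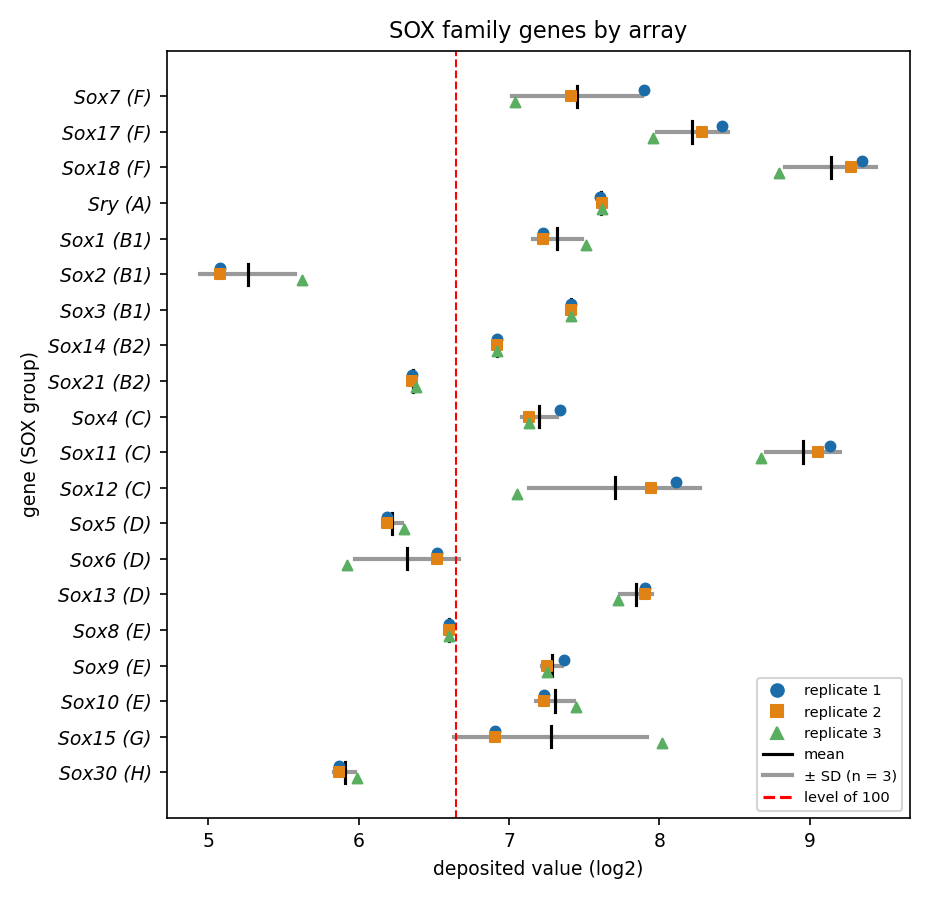
Deposited log2 values of 20 SOX genes, with the SOX group in parentheses, in replicates 1, 2 and 3 (symbols), the mean (black tick) and SD (grey bar, n = 3). Sox7, Sox17 and Sox18 lie right of the dashed level of 100 with 3 separate symbols each, while symbols coincide in 15 of the other 17 genes.

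RNAs of proteins known to work with SOXF factors lay on both sides of the level. Of 8 listed partner genes 7 were measured (Tcf7 was not analysed here), of which 5 were above the level and 2 below, against 41.6% of all named genes on each side, with a median of 8.15 log2. Mef2c, a MADS-box factor that pairs with Sox18, measured 9.90, 9.33 and 8.38 and was above at 9.21 ± 0.77 (SD, n = 3). Rbpj, the DNA-binding effector of Notch, measured 7.01 ± 0.22 as the mean of 2 probe sets. It was called above because at least 1 of them passed (smallest adjusted p = 0.040, limma), and their mean itself was not tested. Beta-catenin Ctnnb1, which binds the carboxyl-terminal part of SOXF proteins, was at 9.76 ± 0.64.

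The TCF factors, which compete for or share beta-catenin with SOXF proteins, were split. Tcf7l2 was above at 9.83 ± 0.65 log2 and Tcf7l1 at 8.15 ± 0.15 (SD, n = 3). Lef1 was listed at 6.40 in all 3 arrays and was below, though not by the pooled spread. Pou5f1, the partner of Sox17 in endoderm formation, was below at 5.34 in all 3 arrays. Of the 7 genes, 4 were lowest in replicate 3, against 28.2% of all named genes. With 1 array left out, 1, 1 and 3 of the 7 were above (without replicate 1, 2 and 3). The same settings left 8424, 7712 and 11688 of all 35557 probe sets above.

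Of 6 genes known to act before the SOXF genes, 4 were above the level and 1 was below, against 41.6% of all named genes on each side. The ETS factors Fli1 (9.92 ± 0.81 log2) and Erg (9.38 ± 0.63) were above, and Etv2, which starts the endothelial program in the early embryo, was below at 6.12 ± 0.02 (SD, n = 3), though not by the pooled spread. Erg is also among the endothelial markers. The immediate early factor Egr1 was listed at 7.67 in all 3 arrays. Vegfc, a lymphatic growth factor, was above at 7.52 ± 0.27, and the related Vegfd at 6.57 ± 0.14 did not pass. Without replicate 1, 2 and 3, 1, 1 and 5 of the 6 were above. Over all 35557 probe sets these counts were 8424, 7712 and 11688.

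Genes that the field places downstream of SOXF factors were counted together. All 16 were measured, 10 were above the level, 2 were below, against 41.6% of all named genes on each side, and their median of 8.11 log2 compares with 6.67 over all named genes. By the pooled spread 12 were above and 2 below. Without replicate 1 the count above was 3 and without replicate 2 it was 2, while 11 passed without replicate 3. Over all 35557 probe sets the counts were 12629 with 3 arrays, and 8424, 7712 and 11688 without replicate 1, 2 and 3. Cdh5, Kdr and Tek of this list are also among the endothelial markers, and a high Tek value follows from the sort on its promoter. Downstream membership was not tested here, since no sample with altered SOXF genes was analysed.

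Arterial genes of the list, best known as targets of Sox17, were all lowest in replicate 3, as were all 10 endothelial markers and 28.2% of all named genes. The ephrin ligand Efnb2 measured 10.54, 10.24 and 8.96 log2 and was above the level at 9.91 ± 0.84 (SD, n = 3). The chemokine receptor Cxcr4 was above at 8.48 ± 0.54 and the receptor Notch4 at 7.61 ± 0.20. Notch1 measured 8.41, 8.25 and 6.91, and the Notch ligand Dll4 measured 7.71, 7.71 and 6.59, under 100 in replicate 3. Neither passed (adjusted p = 0.11 and 0.19, limma), though both did by the pooled spread.

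Venous and lymphatic genes followed no common pattern. Nr2f2, the venous nuclear receptor, was listed at 9.01 log2 in all 3 arrays. Prox1, the lymphatic regulator that Sox18 is known to switch on in veins, measured 6.02, 6.66 and 6.02 and was not called on either side (adjusted p = 0.15 for below, limma). Replicate 2 alone was just over the level, and the other arrays held equal values. The VEGF-C receptor Flt4 measured 8.15, 8.15 and 6.82 and did not pass (adjusted p = 0.12, limma), though it did by the pooled spread.

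Of 8 receptors and junction genes on the list, 6 were above the level and 2 below, against 41.6% of all named genes on each side. By the pooled spread 5 were above and 2 below. VE-cadherin Cdh5 was at 11.08 ± 0.59 log2, Tek at 10.74 ± 0.53, the tight junction gene Cldn5 at 10.12 ± 0.05, Kdr, which binds VEGF, at 9.89 ± 0.96 and the guidance receptor Robo4 at 8.35 ± 0.54, and all were above the level (SD, n = 3). Cldn5, a known direct target of Sox18, measured 10.15, 10.15 and 10.07 in the 3 arrays, with equal values in replicates 1 and 2. The adhesion molecule Vcam1 passed at 7.15 ± 0.17, but with the pooled spread it did not. The guanylate cyclase subunit Gucy1b1 was below at 5.14 ± 0.02, and so was the protease Mmp7, listed at 5.82 in all 3 arrays.

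**Figure D4:**
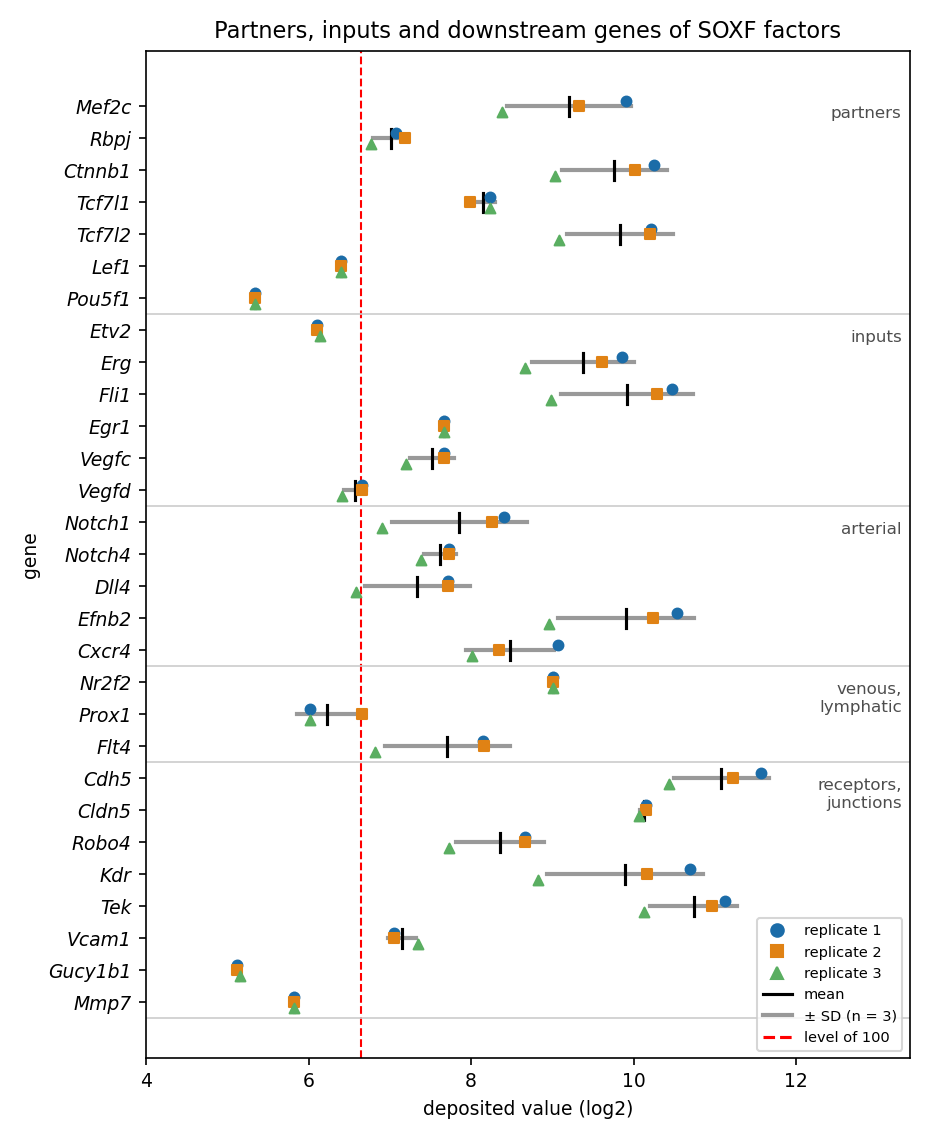
Deposited log2 values of 7 partner genes, 6 genes acting before SOXF factors and 16 downstream genes in replicates 1, 2 and 3 (symbols), with the mean (black tick) and SD (grey bar, n = 3). The dashed line is the level of 100. All 5 arterial genes are lowest in replicate 3, and Gucy1b1 and Mmp7 lie left of the line.

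The downstream promoters were searched for the SOX hexamer AACAAT on both strands (ATTGTT on the other), from 250 bases before to 50 after each RefSeq start (GRCm38.p6). It was found for 2 of 14 downstream genes with a promoter in the table, in 3 of their 16 promoters, and in 10.7% of all 32851 promoters. A match is only a match of letters, and the reference strain is not CD-1. The 2 genes are shown with the hexamer in capitals, Tek because its promoter marked the sorted cells and because it was above the level, and Mmp7 because it was below it. The Tek promoter lies at chr4:94739039-94739338 on the plus strand with 1 hexamer that begins 63 bases before the start. The Mmp7 promoter lies at chr9:7691840-7692139 on the plus strand with 2, and the third matching promoter is a second Mmp7 start that overlaps it.
Tek: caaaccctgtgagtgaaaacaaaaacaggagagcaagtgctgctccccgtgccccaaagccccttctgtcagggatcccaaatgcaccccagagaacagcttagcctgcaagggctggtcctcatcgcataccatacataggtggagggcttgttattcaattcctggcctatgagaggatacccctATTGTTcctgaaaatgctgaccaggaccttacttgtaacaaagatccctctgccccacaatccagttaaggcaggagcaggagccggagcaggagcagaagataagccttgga
Mmp7: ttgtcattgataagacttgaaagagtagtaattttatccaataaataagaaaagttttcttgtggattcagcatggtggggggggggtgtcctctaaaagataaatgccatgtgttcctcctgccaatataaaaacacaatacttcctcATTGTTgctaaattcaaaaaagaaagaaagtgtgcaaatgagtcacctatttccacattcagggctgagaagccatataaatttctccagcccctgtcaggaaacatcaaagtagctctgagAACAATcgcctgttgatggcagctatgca

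Other lineages that use SOXF genes were looked at through their markers. Sox17 is a defining gene of definitive endoderm. Of 7 other endoderm genes measured, 2 were above the level and 4 below, against 41.6% of all named genes on each side. Foxa1 (5.90 ± 0.18 log2), Foxa3 (5.17 ± 0.00), Cer1 (5.66 ± 0.03) and Afp (5.45 ± 0.07) were below, Foxa2 at 6.80 ± 0.11 did not pass, and Gata4 (6.93 ± 0.01) and Gata6 (8.05 ± 0.19), which other tissues also use, were above (SD, n = 3). By the pooled spread Gata6 alone was above.

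Of 7 fetal blood stem cell genes, 1 was above and 3 below (3 and 1 by the pooled spread), against 41.6% of all named genes on each side. Procr, which endothelium shares, was listed at 8.55 log2 in all 3 arrays. Kit measured 9.28, 8.86 and 7.55, and Mecom, as the mean of 2 probe sets, 7.51, 7.49 and 5.94. Neither passed, though both did by the pooled spread, Mecom through at least 1 of its probe sets. Myb and Hlf, at 6.34 and 6.13 in all 3 arrays, were below except by the pooled spread, with Slamf1 at 4.56 ± 0.15 (SD, n = 3).

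Among the markers of cells that the sort could carry along, 1 of 8 macrophage genes was above the level and none below (5 and 0 by the pooled spread), and 1 of 5 erythroid genes was above and 3 below (0 and 3). Of 4 genes each, 2 nephron progenitor genes were above and 2 below (2 and 1), 2 ureteric bud genes above and 1 below (1 and 0), and 1 stromal and mural gene above and 2 below (1 and 2). Of 2 neural crest genes, Sox10 was above and Erbb3 below, by the pooled spread too. Among all 19938 named genes 41.6% were above and 41.6% below, and by the pooled spread 7180 and 6474 genes were. The part of these cells in the SOXF values was not tested.

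Genes that neighbour the SOXF genes in the RefSeq gene order showed no common level. Next to Sox7, Pinx1 measured 9.58, 9.58 and 8.54 log2 and was above the level, while Xkr6 was below at 6.04 ± 0.06, and 4930578I06Rik and Rp1l1 did not pass. Next to Sox17, Mrpl15 was above at 9.73 ± 0.21, Rp1 (4.78 ± 0.12) and Xkr4 (6.35 ± 0.00) were below, the latter not by the pooled spread, and Lypla1 at 7.62 ± 0.46 did not pass, though it did by the pooled spread and after quantile normalization. Next to Sox18, Prpf6 at 8.64 ± 0.32 and Rgs19 at 7.59 ± 0.33 were above and Tcea2 at 7.44 ± 0.70 did not pass except by the pooled spread (SD, n = 3).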

How the data were processed

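Gene expression was measured in 3 pools of Tie2-GFP sorted cells, 1 array each. The authors deposited log2 values for 35557 probe sets. Affymetrix Expression Console is named in the submitters' processing notes, while how they were summarized was not stated in any source used (RMA in GeneSpring was the choice for the published analysis). The deposited values were used as they stand, and no probe coordinates were used. The platform annotation gave 1 symbol for 21789 probe sets and several for 1621, and none here for 12147. Current symbols came from a RefSeq table matched on gene identifier (21698 matched, GRCm38.p6). A gene was the mean of its probe sets, above the level if any probe set was and below only if all were.

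The mean of each probe set over the arrays was tested against 100 (6.64 log2) with limma 3.58.1 in R 4.3.3. An intercept-only model moderated with eBayes was used. Tests were one-sided, once for above and once for below, and p-values were adjusted (Benjamini-Hochberg) across every probe set with a threshold of 0.05. The test was also run on simulated data with independent normal errors and no equal values between arrays, so calls that rest on equal values were not checked. Alternatives were 1 pooled spread, an intensity trend, no moderation, levels of 50 and 200, quantile normalization, median centring, adjustment over named probe sets, and leaving out each array. The members, gene lists, named genes (all list members, neighbours and the 3 genes of most similar pattern) and tests were chosen with earlier results of these data known, and the hexamer and the promoters shown after the values were seen. Promoters came from RefSeq. The small number of arrays limits the precision. Python 3.11.15, numpy 2.4.6 and pandas 2.3.3 were used for the summaries.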

Additional observations from a re-analysis of the deposited data

How the results depend on the processing

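Sox17 and Sox18 stayed above the level with an intensity trend, without moderation, with the pooled spread, after either normalization, with adjustment over named probe sets and at a level of 50. Sox7 passed with the pooled spread, quantile normalization and the level of 50. At a level of 200, Sox7 lay below it by -0.19 log2, and 1 of the 3 SOXF genes (Sox18), 1 of 17 other SOX genes, 3 of 7 partner genes, 1 of 6 genes acting before them, 4 of 16 downstream genes and 5510 probe sets were above. At a level of 50, 16 other SOX genes and 21712 probe sets were above. Leaving out 1 array gave 0 to 2 SOXF genes, 5 to 9 other SOX genes, 1 to 3 partner genes, 1 to 5 genes acting before them, 2 to 11 downstream genes and 7712 to 11688 probe sets above the level, with the lowest counts without replicate 2 (and equally without replicate 1 for the partner genes and those acting before them). With 2 arrays fewer probe sets passed in general, and the cause of single losses was not tested. No paired analysis was possible because there was a single group.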
